A study of Mus musculus with 9 samples.

Results

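A set of 9 genes of blood clotting and clot removal was followed through splenic monocytes: the clotting factors F3, F7, F10, F5 and F13a1, the anticoagulants Tfpi and Thbd, and the urokinase pair Plau and Plaur. They were chosen by name, with earlier results of these data known, and all 9 were matched by symbol among 55487 gene IDs. Of the 9, 7 passed a filter on low counts and were tested with 18341 genes in all, while F3 and Plau were not. RNA was sequenced from untreated, sort-purified monocytes of C57BL/6 mouse spleen in 3 groups of 3 libraries. The groups were wild-type (WT) Ly6Chi monocytes, the classical inflammatory subset, WT Ly6Clo monocytes, the patrolling subset, and Ly6Clo monocytes of Cebpa +37-/- mice, called KO here. These mice are homozygous for loss of an element of Cebpa, the gene of the myeloid transcription factor C/EBP-alpha. The labels name no Cre or promoter, give no ages and do not say whether the libraries of a group came from separate animals, so each p-value measures only the spread between these libraries, part of which may be technical. KO Ly6Chi monocytes were not analysed here, so the genotypes can be compared only within the Ly6Clo subset.

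Clotting begins when tissue factor, encoded by F3, binds factor VII, and the pair activates factor X. Factor Xa with its cofactor factor V turns prothrombin into thrombin, thrombin cuts fibrinogen, and factor XIII cross-links the fibrin. Tissue factor pathway inhibitor blocks the first step, thrombomodulin turns thrombin towards protein C activation, and urokinase held on its receptor makes plasmin, which dissolves fibrin. Most clotting factors are made in the liver. Monocytes are known for making the A subunit of factor XIII, for carrying urokinase receptor and for making tissue factor when stimulated.

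Depth ran from 48141590 to 173703361 counts per library. The deepest was WT Ly6Clo replicate 2, followed by KO Ly6Clo replicate 2 at 149773219 counts and then, far below, KO Ly6Clo replicate 1 at 60462708. Levels are given as CPM, counts per 1000000 counts of a scaled library size, and a gene is called where its p from the quasi-likelihood test of edgeR, adjusted by Benjamini-Hochberg over all tested genes, was under 0.05. Cebpa itself stood at 31.5, 51.3 and 51.6 CPM in WT Ly6Chi libraries, against 18.1, 17.7 and 19.2 CPM for WT Ly6Clo and 4.03, 2.89 and 2.74 CPM for KO Ly6Clo. It was lower in KO than in WT Ly6Clo by edgeR (log2 fold change -2.51, SE 0.27, adjusted p 0.015), and this call was lost in 9 of 18 alternatives (adjusted p up to 0.13), among them leaving out any WT Ly6Clo library, KO Ly6Clo replicate 2 or 3, or WT Ly6Chi replicate 3. The summed Ly6Chi markers ran from 6794 to 9334 CPM in WT Ly6Chi libraries. They ran from 230 to 274 CPM in WT Ly6Clo and from 137 to 232 CPM in KO Ly6Clo. Those of Ly6Clo monocytes ran from 1339 to 6198, 10092 to 19475 and 6949 to 13215 CPM in the same order. Both sums separated the subsets as labelled, but they do not measure purity. Erythroid markers summed to 134 to 229 CPM in WT Ly6Chi, 405 to 3354 in WT Ly6Clo and 1.78 to 7570 in KO Ly6Clo. Markers of B cells reached 703 CPM in a library, of dendritic cells 541 and of T and NK cells 274. The part of these cells in the member levels was not tested. WT Ly6Chi replicate 3 stood apart in genes that differ by sex: it had 30.0 CPM of Xist and 0 CPM of Ddx3y and of Eif2s3y. The other 8 libraries had at most 0.0417 CPM of Xist, 69.3 to 142 CPM of Ddx3y and 51.8 to 131 CPM of Eif2s3y. By these genes WT Ly6Chi replicate 3 held female cells, from another animal than WT Ly6Chi replicates 1 and 2, and the other 8 libraries male cells. Sex was thus mixed in WT Ly6Chi and not in the Ly6Clo groups, and its part in the comparisons with WT Ly6Chi was not tested. In bulk RNA, fewer expressing cells and less RNA per cell cannot be told apart.

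Set per length of transcript, in TPM, transcripts per 1000000 transcripts, as the authors deposited them, the 9 genes covered a wide range in WT Ly6Chi monocytes. Plaur stood at 932 ± 439 TPM (SD, n = 3 for each mean here) and F13a1 at 816 ± 249 TPM, and their libraries overlapped. F10 followed at 218 ± 49.7 TPM and Thbd at 192 ± 106 TPM, again overlapping each other, then F5 at 21.8 ± 16.8 TPM, which overlapped neither neighbour. F7 at 3.82 ± 3.35 and Tfpi at 1.79 ± 0.546 TPM overlapped each other, Plau stood at 0.252 ± 0.391 TPM, and F3 was lowest, listed at 0 in this and both other groups. In WT Ly6Clo monocytes the order began with Plaur at 1394 ± 1152 TPM, Thbd at 278 ± 55.4 TPM and F10 at 110 ± 17.3 TPM, with no overlap between these neighbours, while Tfpi, F13a1, F5 and F7, in that order, had means from 1.12 to 0.560 TPM and each overlapped the next. KO Ly6Clo monocytes had the same 3 genes at the top, with Plaur at 969 ± 351 TPM, Thbd at 200 ± 37.3 TPM and F10 at 52.3 ± 1.61 TPM, none overlapping the next, and the remaining members had means of at most 1.45 TPM. F13a1 was next to the top in the classical monocytes and had a mean of at most 0.848 TPM in both Ly6Clo groups.

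**Figure D1:**
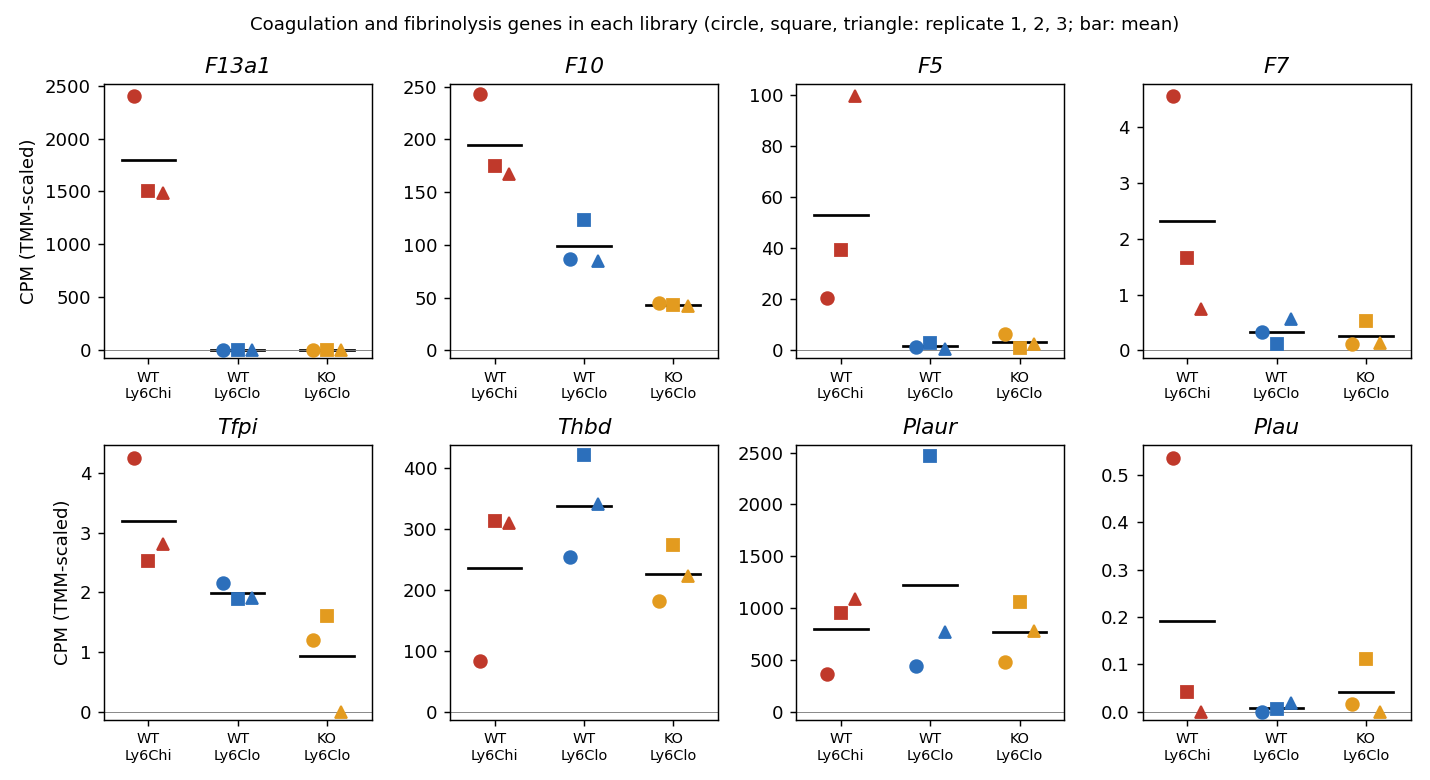
Level of 8 of the 9 genes in each of the 9 libraries, in CPM on a linear axis that differs between panels, with circles, squares and triangles for replicates 1, 2 and 3 and a bar for the group mean. F3 is left out because it had 0 counts in all 9 libraries. F13a1 is near 0 in both Ly6Clo groups, F10 steps down from WT Ly6Chi to WT Ly6Clo to KO Ly6Clo without overlap, and Thbd and Plaur are lowest in replicate 1 of each group.

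The first comparison set patrolling against classical monocytes of wild-type mice. F13a1, F5 and F10 were lower in WT Ly6Clo than in WT Ly6Chi monocytes, and no tested member was called higher. These 3 calls stand among 7 tested members, against 1.62% of all tested genes called lower. The median log2 fold change of the 7 was -0.99, against -0.0042 over all tested genes. F13a1 and F7 were over the filter in all 3 WT Ly6Chi libraries, but in 2 of WT Ly6Clo and 1 of KO Ly6Clo, and the count and median describe the members that passed and support nothing further.

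F13a1 lies on the minus strand at chr13:36867178-37050244 (GRCm38, as are all coordinates here) and encodes the A subunit of factor XIII, the transglutaminase that cross-links fibrin. It measured 2398, 1505 and 1486 CPM across WT Ly6Chi replicates 1 to 3, against 3.37, 2.07 and 0.153 CPM for WT Ly6Clo and 0.0310, 1.98 and 0 CPM for KO Ly6Clo. Every WT Ly6Chi library was far above every Ly6Clo library of either genotype, while the WT and KO Ly6Clo libraries overlapped. The mean fell from 1797 ± 521 to 1.86 ± 1.62 CPM between the WT subsets (log2 fold change -9.91 with SE 1.76, adjusted p 0.019 by edgeR). The call held in 12 of 17 alternatives, with adjusted p from 0.00035 to 0.088. It was lost without WT Ly6Chi replicate 2 (0.055) or 3 (0.051) or without WT Ly6Clo replicate 1 (0.073), 2 (0.088) or 3 (0.067), and without WT Ly6Clo replicate 1 the log2 fold change was -10.56. DESeq2 gave no adjusted p for F13a1. With a term for the run of library numbers, which split the libraries 5 and 4, the value was -11.66 (0.013), and within the 2 runs the log2 ratio of means was -9.78 and -13.26.

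Platelets and megakaryocytes also carry F13a1. Their 11 markers summed to 35.2 to 44.2 CPM in WT Ly6Chi, 51.4 to 82.2 CPM in WT Ly6Clo and 56.6 to 83.1 CPM in KO Ly6Clo libraries. Itgb3 was the highest of them in every group, with 6, 4 and 5 of the 11 at a mean under 1 CPM in that order of groups, and Gp1bb was at 0 in both WT groups. The part of platelet and megakaryocyte RNA in the F13a1 levels was not tested. Neutrophil markers moved in the direction of F13a1, with sums of 284 to 797 CPM in WT Ly6Chi, 2.76 to 5.97 CPM in WT Ly6Clo and 2.01 to 33.1 CPM in KO Ly6Clo libraries. Within WT Ly6Chi that sum was highest in replicate 2, while F13a1 was highest in replicate 1 and F5 in replicate 3, and the part of neutrophil RNA in these differences was not tested. The exons of F13a1 share 74 bases with the antisense gene Gm30489, which had at most 23 counts in any library.

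The bases before the F13a1 start sites are shown because F13a1 had the largest fold difference of the 7 tested members and the deleted element belongs to a C/EBP gene. Both are RefSeq promoters of GRCm38.p6, read 5′ to 3′ on the minus strand, each with the 250 bases before a start. Capitals mark matches to a C/EBP motif, TTNNGNAA, or an AP-1 motif, TGANTCA, each searched on both strands.
F13a1 promoter 1, chr13:37050245-37050494: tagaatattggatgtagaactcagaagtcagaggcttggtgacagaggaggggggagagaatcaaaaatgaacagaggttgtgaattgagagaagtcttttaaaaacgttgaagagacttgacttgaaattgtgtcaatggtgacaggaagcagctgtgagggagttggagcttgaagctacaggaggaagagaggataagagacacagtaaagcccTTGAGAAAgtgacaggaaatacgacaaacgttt
F13a1 promoter 2, chr13:37049214-37049463: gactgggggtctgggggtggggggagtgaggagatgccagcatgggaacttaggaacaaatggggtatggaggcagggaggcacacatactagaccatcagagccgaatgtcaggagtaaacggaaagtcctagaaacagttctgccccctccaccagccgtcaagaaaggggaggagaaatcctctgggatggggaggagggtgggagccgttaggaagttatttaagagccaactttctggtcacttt
The first holds 1 C/EBP match, which begins 33 bases before the start, and the second holds none. Of 32851 RefSeq promoters of this length, 36.8% hold a C/EBP match and 6.75% an AP-1 match, so a match is a description of the letters and not of binding.

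F5, on the plus strand at chr1:164151838-164220277, encodes factor V, the cofactor that speeds thrombin formation by factor Xa. It measured 20.6, 39.5 and 99.5 CPM in WT Ly6Chi libraries, against 1.34, 2.75 and 0.668 CPM for WT Ly6Clo and 6.41, 1.05 and 2.33 CPM for KO Ly6Clo. The WT Ly6Chi libraries differed widely among themselves yet all lay above both Ly6Clo groups, and the highest of them was replicate 3, the library that stood apart. F5 fell from 53.2 ± 41.2 to 1.58 ± 1.06 CPM (log2 fold change -5.05 with SE 0.92, adjusted p 0.021 by edgeR). The call held in 12 of 18 alternatives, with adjusted p from 1.2e-09 to 0.095. Leaving out WT Ly6Chi replicate 3 gave a log2 fold change of -4.22 (adjusted p 0.061), and leaving out WT Ly6Clo replicate 2 gave -5.72 (0.051). It was also lost without WT Ly6Chi replicate 2 (0.055), without WT Ly6Clo replicate 1 (0.095) or 3 (0.087), and with the run as a term (0.0504). Within the 2 runs the log2 ratio of means was -3.33 and -6.70. F5 shares 262 exonic bases with the antisense gene Gm16548, which had 4 to 27 counts per library.

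F10, on the plus strand at chr8:13037308-13056676, encodes factor X, the protease at which the clotting routes meet. It measured 243, 175 and 167 CPM in WT Ly6Chi libraries, against 86.5, 124 and 85.0 CPM for WT Ly6Clo and 44.6, 43.0 and 42.2 CPM for KO Ly6Clo. The 3 groups followed each other downwards with no overlap, and the KO libraries lay very close together. Between the WT subsets the mean fell from 195 ± 41.5 to 98.5 ± 22.03 CPM (log2 fold change -0.99 with SE 0.21, adjusted p 0.037 by edgeR). This call was near the threshold and held in 8 of 18 alternatives, with adjusted p from 0.00051 to 0.17. It was lost without WT Ly6Chi replicate 1 (0.12), 2 (0.09) or 3 (0.071), without WT Ly6Clo replicate 1 (0.16) or 3 (0.15), and without KO Ly6Clo replicate 2 (0.073) or 3 (0.071). It was lost as well with no filter on low counts (0.068), in a fit of the 2 groups alone (0.059) and without the 3 libraries of replicate number 1 (0.17). The direction was the same in each of these, and the log2 ratio of means was -1.21 and -1.01 within the 2 runs of library numbers.

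The promoters of F10 and F5 are given for comparison with that of F13a1, as the other members called lower. Both are on the plus strand and hold no match to either motif, so they carry no capitals.
F10 promoter, chr8:13037058-13037307: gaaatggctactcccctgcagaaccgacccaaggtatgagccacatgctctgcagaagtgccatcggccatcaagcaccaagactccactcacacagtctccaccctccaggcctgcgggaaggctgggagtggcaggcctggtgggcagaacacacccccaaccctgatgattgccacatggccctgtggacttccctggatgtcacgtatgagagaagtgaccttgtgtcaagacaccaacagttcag
F5 promoter, chr1:164151585-164151834: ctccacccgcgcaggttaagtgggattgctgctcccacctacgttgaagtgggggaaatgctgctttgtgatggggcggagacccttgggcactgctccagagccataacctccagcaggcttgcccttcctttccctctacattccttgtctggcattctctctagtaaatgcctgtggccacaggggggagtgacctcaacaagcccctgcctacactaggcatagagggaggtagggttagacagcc
No match says only that these letters are not in this window.

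The genes of the initiation step were read at low levels or not at all. F3, the tissue factor gene at chr3:121723537-121735048 on the plus strand, had 0 counts in all 9 libraries, and over 694149669 counts this allows a level of up to 0.00432 CPM (3 counts, counting error only). By group the same limit was 0.0202 CPM in WT Ly6Chi, 0.0107 CPM in WT Ly6Clo and 0.0113 CPM in KO Ly6Clo. F7, which encodes factor VII and lies at chr8:13026034-13035809 on the plus strand, measured 4.56, 1.65 and 0.735 CPM in WT Ly6Chi libraries, against 0.330, 0.106 and 0.553 CPM for WT Ly6Clo and 0.108, 0.526 and 0.140 CPM for KO Ly6Clo. The WT Ly6Chi libraries lay above the rest without overlap, but the difference between the WT subsets was not called by edgeR (log2 fold change -2.82, SE 0.99, adjusted p 0.17); DESeq2 gave 0.042, the lowest of 17 alternatives that reached 0.49. The F7 value was -1.86 without WT Ly6Chi replicate 1, -1.87 without the libraries of replicate number 1 and -3.41 without WT Ly6Clo replicate 3. F7 ends 1498 bases before F10 on the same strand. Both were highest in WT Ly6Chi replicate 1, and whether reads run on from F7 into F10 was not tested. Tfpi, the inhibitor of the first step, at chr2:84432855-84476775 on the minus strand, measured 4.25, 2.52 and 2.82 CPM in WT Ly6Chi libraries, against 2.16, 1.89 and 1.91 CPM for WT Ly6Clo and 1.21, 1.60 and 0 CPM for KO Ly6Clo. Its groups also followed each other downwards without overlap, yet no difference passed edgeR's test (log2 fold change between WT subsets -0.69, SE 1.16, adjusted p 0.82).

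**Figure D2:**
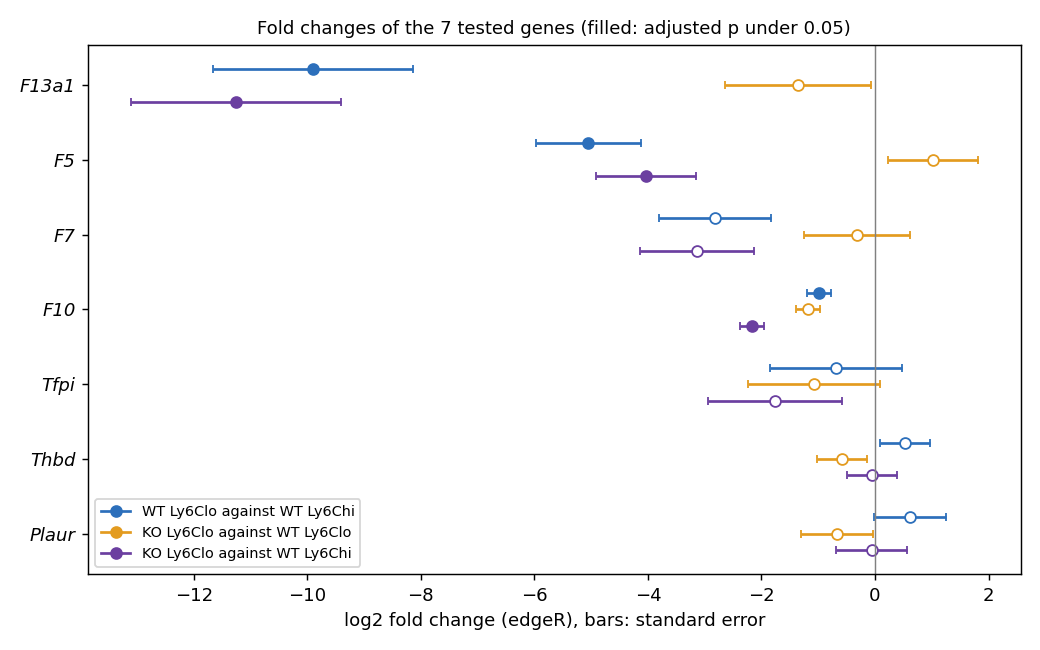
Log2 fold change of the 7 tested members in the 3 comparisons, with standard errors from edgeR and filled points where the adjusted p was under 0.05. F13a1, F5 and F10 are filled in both comparisons with WT Ly6Chi, and no point of KO Ly6Clo against WT Ly6Clo is filled.

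Within Ly6Clo monocytes, KO was compared with WT, the contrast of genotypes within a subset. No tested member was called by edgeR, where 0.0709% of all tested genes were called in either direction. F10 had an unadjusted p under 0.05, as 1 of 7 tested members, against 6.16% of all tested genes. DESeq2 called 1 member, F10. The median log2 fold change of the 7 was -0.67, against 0.03 over all tested genes.

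F10 stood at 43.3 ± 1.23 CPM in KO against 98.5 ± 22.03 CPM in WT Ly6Clo monocytes, with each of the 3 KO libraries below each of the 3 WT libraries. The log2 fold change was -1.19 (SE 0.21), with an unadjusted p of 0.0003 and an edgeR adjusted p of 0.15. Adjusted p ranged from 7.2e-05 with DESeq2, the single setting of 18 under the threshold, to 0.4, and the log2 fold change kept its sign in all 18, between -1.29 and -0.97. Within the 2 runs of library numbers the log2 ratio of means was -1.26 and -1.01. F10 and Tfpi were the 2 of the 7 tested members with every KO Ly6Clo library below every WT Ly6Clo library and those below every WT Ly6Chi library, a pattern of 0.785% of all tested genes. The KO libraries of Tfpi differed among themselves, with 78, 228 and 0 counts, and the test of KO against WT Ly6Clo gave a log2 fold change of -1.08 (SE 1.16, edgeR adjusted p 1). That value was -1.72 without KO Ly6Clo replicate 2, -0.50 without replicate 3 and -2.20 with limma-voom.

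F13a1 was not called between genotypes (log2 fold change -1.35 with SE 1.28, adjusted p 1 by edgeR). Without KO Ly6Clo replicate 2, which holds 282 of the 284 KO counts of F13a1, that value was -6.70 (adjusted p 0.45). KO Ly6Clo replicate 2 was the deepest KO library. It was also their highest in erythroid (7570 CPM), dendritic cell (541 CPM) and T and NK cell (274 CPM) marker sums. B cell and neutrophil markers were highest in KO replicate 3, and platelet and megakaryocyte markers in KO replicate 1. The part of other cells in the F13a1 counts of KO replicate 2 was not tested. The F13a1 value was -0.70 without WT Ly6Clo replicate 1, -0.16 without the libraries of replicate number 1 and -2.83 with limma-voom. F5 had a log2 fold change of 1.02 (SE 0.80, edgeR adjusted p 1), which became 0.03 without KO Ly6Clo replicate 1, its highest KO library, and 1.70 without WT Ly6Clo replicate 2. F7 gave -0.32 (SE 0.94, adjusted p 1), and -1.39 without KO Ly6Clo replicate 2. A p that misses the threshold does not show that these levels are equal in the genotypes.

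KO Ly6Clo monocytes were also set beside WT Ly6Chi monocytes. This contrast differs in subset and genotype together and shares libraries with the other 2. F13a1, F10 and F5 were called lower, 3 of 7 tested members against 2.46% of all tested genes, and the median log2 fold change of the 7 was -2.17, against 0.04 over all tested genes. F13a1 and F7 were over the filter in all 3 WT Ly6Chi libraries but in 1 of KO Ly6Clo. The count and median therefore describe the members that passed and support nothing further. F10 had a log2 fold change of -2.17 (SE 0.21, edgeR adjusted p 0.00099) and was called in all 18 alternatives, with adjusted p of at most 0.011. F13a1 had -11.26 (SE 1.85, edgeR adjusted p 0.011) and was called in all 17 alternatives that gave an adjusted p, and its value was -16.60 without KO Ly6Clo replicate 2, -13.32 with limma-voom, -13.05 with the run as a term and -10.41 without the libraries of replicate number 1. F5 had -4.03 (SE 0.88, edgeR adjusted p 0.036), called in 10 of 18 alternatives with adjusted p from 2.4e-06 to 0.14. Its value was -3.20 (adjusted p 0.11) without WT Ly6Chi replicate 3, -5.00 (0.026) without KO Ly6Clo replicate 1 and -5.37 (0.037) without the 3 libraries of replicate number 1. Its call was also lost on leaving out replicate 2 of WT Ly6Chi (0.079), replicate 1 of WT Ly6Clo (0.061), or replicate 2 (0.1) or 3 (0.14) of KO Ly6Clo, in a fit of the 2 groups alone (0.056) and with the run as a term (0.08). Within the 2 runs the log2 ratio of means was -2.47 and -4.90 for F5 and -2.47 and -2.02 for F10. F7 (log2 fold change -3.14, SE 0.999, edgeR adjusted p 0.14) and Tfpi (-1.76, SE 1.18, adjusted p 0.54) were not called. DESeq2 called F7 (0.019), and the F7 value was -2.18 without WT Ly6Chi replicate 1, -1.82 without the libraries of replicate number 1 and -4.22 without KO Ly6Clo replicate 2. Tfpi gave -2.41 without KO Ly6Clo replicate 2, -2.88 with limma-voom and -2.65 with the run as a term.

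Thbd and Plaur, which encode surface receptors, were called in no comparison and no alternative. Thbd, a single-exon gene at chr2:148404466-148408188 on the minus strand, encodes thrombomodulin, the receptor that binds thrombin. It measured 82.8, 313 and 309 CPM in WT Ly6Chi libraries, against 253, 420 and 341 CPM for WT Ly6Clo and 182, 273 and 222 CPM for KO Ly6Clo. All 3 groups overlapped, and replicate 1 was the lowest of each. The log2 fold change was 0.52 (SE 0.44, edgeR adjusted p 0.6) between the WT subsets, -0.58 (SE 0.44, adjusted p 1) for KO against WT Ly6Clo and -0.06 (SE 0.44, adjusted p 0.97) for KO Ly6Clo against WT Ly6Chi.

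Plaur, at chr7:24462484-24475968 on the plus strand, encodes the urokinase receptor, which holds the protease at the cell surface. It measured 367, 952 and 1089 CPM in WT Ly6Chi libraries, against 441, 2468 and 772 CPM for WT Ly6Clo and 477, 1057 and 780 CPM for KO Ly6Clo. The groups overlapped, replicate 1 was again the lowest of each, and WT Ly6Clo replicate 2 was far above the rest. The log2 fold change was 0.61 (SE 0.63, edgeR adjusted p 0.68) between the WT subsets, and -0.41 without WT Ly6Clo replicate 2. For KO against WT Ly6Clo it was -0.67 (SE 0.63, edgeR adjusted p 1), and 0.37 without that library. For KO Ly6Clo against WT Ly6Chi it was -0.06 (SE 0.63, edgeR adjusted p 0.98). Within the 2 runs of library numbers the log2 ratio between WT Ly6Clo and WT Ly6Chi was 1.99 and -0.40 for Plaur, and 2.02 and 0.13 for Thbd. The first of these runs holds only replicate 1 of WT Ly6Chi.

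The library of each group that was lowest in Thbd and Plaur was also its lowest in immediate early and heat shock genes, a list that reports handling and stimulation of cells (Fos, Jun, Dusp1, Egr1 and 10 others). Their sum was 2317, 18955 and 19496 CPM in WT Ly6Chi libraries, against 3562, 28332 and 15054 CPM for WT Ly6Clo and 2508, 14334 and 13175 CPM for KO Ly6Clo. Replicate 1 of each group was the lowest, and WT Ly6Clo replicate 2 was the highest of all 9, as it was for Thbd and Plaur. F10 and F13a1 had no such low replicate 1. Its part in the levels of Thbd and Plaur was not tested.

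**Figure D3:**
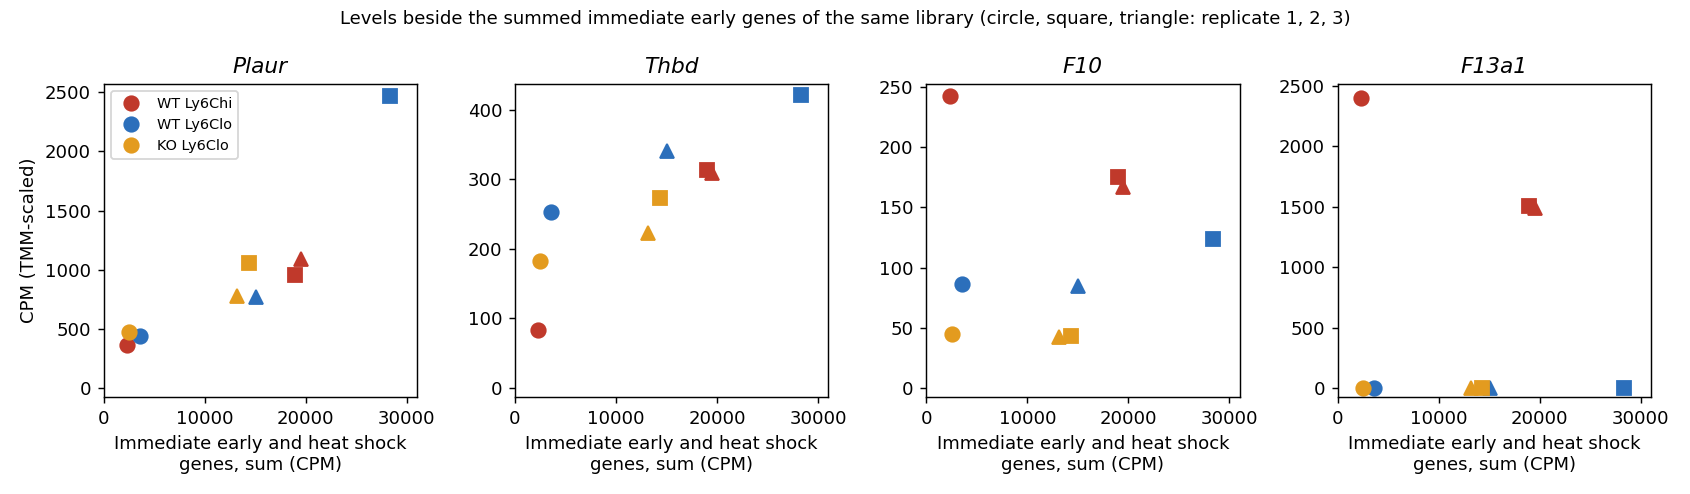
Level of Plaur, Thbd, F10 and F13a1 (vertical axes, CPM) against the summed CPM of 14 immediate early and heat shock genes in the same library, with colour for the group and circle, square and triangle for replicates 1, 2 and 3. Within each group Plaur and Thbd are lowest in the circle, at the left, and both are highest in the WT Ly6Clo square at 28332 CPM. F10 separates by group and F13a1 by subset.

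The Plaur promoter is shown because it holds a match to each motif, and AP-1 is the dimer that Fos and Jun proteins form. It is on the plus strand.
Plaur promoter, chr7:24462233-24462482: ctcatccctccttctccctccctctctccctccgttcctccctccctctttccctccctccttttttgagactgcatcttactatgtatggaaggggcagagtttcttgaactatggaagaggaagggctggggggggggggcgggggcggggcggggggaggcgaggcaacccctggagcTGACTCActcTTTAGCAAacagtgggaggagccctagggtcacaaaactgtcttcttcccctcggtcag
The AP-1 match begins 69 bases and the C/EBP match 59 bases before the start. The F3 promoter holds 2 AP-1 matches, 146 and 135 bases before its start, and F3 had 0 counts in every library, those with the highest immediate early sums included. These matches describe letters only, and the part of AP-1 in the levels of either gene was not tested.

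Plau, at chr14:20836660-20843385 on the plus strand, encodes urokinase, the protease that its receptor holds. It had 30, 2 and 0 counts in WT Ly6Chi libraries, against 0, 1 and 1 for WT Ly6Clo and 1, 16 and 0 for KO Ly6Clo, 51 in all. Its highest level was 0.536 CPM, in WT Ly6Chi replicate 1, whereas Plaur, the gene of its receptor, measured at least 367 CPM in every library.

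The genes with profiles most like a member over the 9 libraries, by the root mean square difference of centred log2(CPM + 1) values among 9493 genes, were found for the 5 members with at least 5 CPM in a group. For F13a1 they were Fn1 (0.97), Chil3 (1.18) and Ly6c2 (1.25), where F13a1 itself varied by 4.70 about its mean. For F10 they were P2rx4 (0.30), Galns (0.30) and Stom (0.31), with 0.89 for F10. For F5 they were Rhou (0.77), Amotl2 (0.78) and Gas7 (0.78), with 1.99 for F5. Fn1, Chil3 and Ly6c2 are on the Ly6Chi marker list. For Thbd they were Sipa1l2 (0.16), Fam102a (0.18) and Ep300 (0.20), with 0.64 for Thbd. For Plaur they were Bambi (0.22), Tob1 (0.23) and Tgif1 (0.24), with 0.79 for Plaur. These nearest genes share libraries and depth with the members, so the differences are descriptions with no test.

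Of 54 other genes of clotting, anticoagulation and fibrinolysis, 33 were tested. In WT Ly6Clo against WT Ly6Chi monocytes 4 were called higher and 3 lower, against 3.51% of all tested genes called in either direction, and the median log2 fold change was 0.02. Without WT Ly6Chi replicate 2 the 7 calls became 4. Among the soluble factors, 10 of 12 were not tested and F9 was not called; F2, the prothrombin gene, and the fibrinogen genes Fga, Fgb and Fgg had group means of at most 0.579 CPM. Vwf, which encodes the von Willebrand factor that tethers platelets, was called higher, from 11.6 ± 2.37 to 57.4 ± 12.4 CPM (log2 fold change 2.30 with SE 0.24, adjusted p 0.0022 by edgeR). Vwf measured 103, 125 and 94.3 CPM in KO Ly6Clo libraries, above all WT Ly6Clo libraries, where the difference from WT Ly6Clo had an edgeR adjusted p of 0.43 (log2 fold change 0.91, SE 0.23), and 0.036 to 0.85 in the alternatives, with DESeq2 the lowest. Vwf is also an endothelial marker; the other 9 endothelial markers summed to 0.939 to 3.68 CPM in WT Ly6Chi, 0.989 to 6.94 CPM in WT Ly6Clo and 3.55 to 8.10 CPM in KO Ly6Clo libraries, with Esam at 0 in both WT groups. Megakaryocytes and platelets also make von Willebrand factor. The summed platelet and megakaryocyte markers, given beside F13a1, were higher in both Ly6Clo groups than in WT Ly6Chi without overlap. Itgb3 was the highest marker in that sum, at a mean of 52.8 CPM for KO Ly6Clo, 43.5 for WT Ly6Clo and 26.9 for WT Ly6Chi. Of that list only Itgb3, Pf4, Ppbp, Itga2b and Gp9 were read singly, and each overlapped between WT Ly6Chi and both Ly6Clo groups. For Itgb3 the overlap with KO Ly6Clo was narrow, with a lowest KO library of 34.8 CPM and a highest WT Ly6Chi library of 35.0 CPM. The part of platelet and megakaryocyte RNA in the Vwf difference was not tested.

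The receptors of plasminogen and partners of the urokinase receptor held calls in both directions, 2 higher and 2 lower of 8 tested. S100a10 and Anxa2, whose proteins form the annexin A2 complex that binds plasminogen, were lower in WT Ly6Clo monocytes. S100a10 measured 349, 156 and 148 CPM in WT Ly6Chi and 30.3, 23.4 and 23.0 CPM in WT Ly6Clo libraries (log2 fold change -3.09 with SE 0.42, adjusted p 0.0063 by edgeR). Anxa2 stood at 1373 ± 215 and 639 ± 39.5 CPM in the same order (log2 fold change -1.10 with SE 0.16, adjusted p 0.0085 by edgeR). The integrin genes Itgb2 (1.16, SE 0.14, edgeR adjusted p 0.0035) and Itgb1 (1.08, SE 0.17, adjusted p 0.013) were higher, and the Itgb1 call was lost without WT Ly6Chi replicate 2 (0.063) or WT Ly6Clo replicate 1 (0.061). Eno1 and Lrp1, the most abundant of those not called, had log2 fold changes of 0.06 and 0.09.

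Tgm2, tissue transglutaminase and a relative of factor XIII, went the opposite way from F13a1. It measured 13.5, 35.9 and 47.7 CPM in WT Ly6Chi libraries, against 422, 888 and 411 CPM for WT Ly6Clo and 332, 971 and 446 CPM for KO Ly6Clo. Tgm2 was higher in WT Ly6Clo than in WT Ly6Chi monocytes without overlap (log2 fold change 4.15 with SE 0.61, adjusted p 0.0095 by edgeR), and without WT Ly6Chi replicate 2 the adjusted p was 0.05. Anxa5, whose protein covers the phosphatidylserine on which clotting factors assemble, was lower (-1.05, SE 0.20, edgeR adjusted p 0.023), a call lost without any 1 of the 6 WT libraries (adjusted p 0.07 to 0.1). Selplg (log2 fold change 0.02) and Thbs1 (-4.55, SE 1.58, edgeR adjusted p 0.17) were not called. Thbs1, which encodes the adhesive protein thrombospondin 1, measured 67.8, 518 and 996 CPM in WT Ly6Chi libraries. In WT Ly6Clo it measured 6.21, 52.4 and 8.62 CPM, and in KO Ly6Clo 0.0310, 10.9 and 8.56 CPM. Replicate 1 was the lowest of each group, as for Thbd and Plaur. Thbs1 was called in 1 of 18 alternatives between the WT subsets and in 4 of 18 for KO Ly6Clo against WT Ly6Chi.

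The vitamin K and secretion genes, the protease-activated receptors, the natural anticoagulants and the plasminogen activators with their inhibitors held no call among 16 tested genes. Between the WT subsets 3.51% of all tested genes were called in either direction, so the lack of a call among 16 says little about these genes. Lman1 and Mcfd2, which carry factors V and VIII out of the endoplasmic reticulum, stood at 77.0 ± 6.39 and 100 ± 9.75 CPM in WT Ly6Chi and at 69.5 ± 4.51 and 75.4 ± 9.77 CPM in WT Ly6Clo libraries. Pros1, which encodes the protein C cofactor protein S, was the most abundant of these other anticoagulant genes, below Thbd in the mean of every group, at 110 ± 15.7 CPM in WT Ly6Chi, 88.7 ± 21.4 CPM in WT Ly6Clo and 106 ± 48.8 CPM in KO Ly6Clo. The thrombin receptor gene F2r stood at 3.63 ± 2.67, 3.51 ± 3.04 and 9.65 ± 3.10 CPM in the same order, and Serpinb2, an inhibitor of urokinase, at 1.14 ± 1.36, 2.10 ± 1.71 and 3.23 ± 1.65 CPM. F2rl2, Gas6 and Serpine2 had group means of at most 1.32 CPM.

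For KO against WT Ly6Clo monocytes edgeR called none of the 33, with 5 at an unadjusted p under 0.05 (Vwf, Gas6, Anxa2, Eno1 and Itgam, beside the 6.16% over all tested genes) and 1 called by DESeq2, Vwf. The median log2 fold change of the 33 was -0.03, and 0.31 for KO Ly6Clo against WT Ly6Chi. For KO Ly6Clo against WT Ly6Chi the same 7 genes were called in the same directions, 4 higher and 3 lower, against 4.52% of all tested genes called in either direction. The Itgb1 call was lost there without WT Ly6Chi replicate 2 (0.065) and without the libraries of replicate number 1 (0.054). Vwf had a log2 fold change of 3.21, Tgm2 of 4.17 and S100a10 of -3.22 in that contrast, which shares the WT Ly6Chi libraries with the first.

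**Figure D4:**
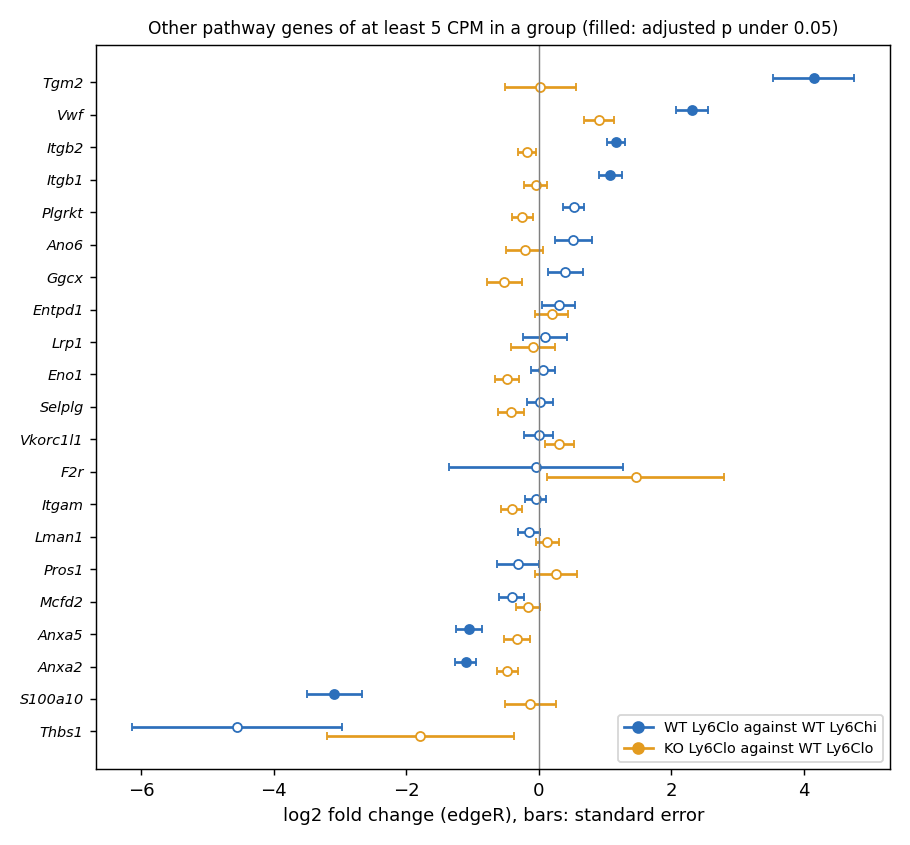
Log2 fold change and standard error (edgeR) of the 21 other pathway genes with at least 5 CPM in a group, for WT Ly6Clo against WT Ly6Chi and for KO Ly6Clo against WT Ly6Clo, filled where the adjusted p was under 0.05. Tgm2, Vwf, Itgb2 and Itgb1 are filled to the right and Anxa5, Anxa2 and S100a10 to the left in the comparison of WT subsets, and no KO against WT point is filled.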

How the data were processed

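Each library has 1 table of gene counts, raw whole-number read tallies that the authors deposited beside CPM, FPKM and TPM columns. From the file headers, these columns were taken to derive from the counts and gene lengths. The deposited TPM was used for levels between genes, and the deposited CPM and FPKM entered no test. Per the submitters' processing notes, the tools were featureCounts 1.4.6-p5 of Subread, Salmon 0.8.2, STAR 2.5.1a, bcl2fastq, limma and edgeR and the build GRCm38 (mm10), with no roles given. Use of strand and the assignment of reads shared by genes are not stated in the labels. Symbols were found for 99.38% of IDs. 3 counts equal 0.0173 to 0.0623 CPM in a library.

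The counts were fitted with edgeR 4.0.16 in R 4.3.3 after filterByExpr (minimum count 10) and TMM scaling, with 1 term per group over all 9 libraries, common dispersion 0.448, and the quasi-likelihood test with Benjamini-Hochberg adjustment at 0.05. Libraries of a group differed from each other by a chi-square of 49.1 to 425 per gene, so none was counted as a duplicate. Standard errors came from the F statistic. The code was tested on simulated data. Alternatives were RLE scaling, DESeq2 1.42.0, limma-voom (limma 3.58.1), no filter or a minimum of 1 CPM in 3 libraries, fits of the 2 groups compared, a replicate block, a term for the run of library numbers in the file names (5 and 4 libraries), each library left out, and, added after seeing the data, the 3 libraries of replicate number 1 left out. The members and gene lists were chosen with earlier results of these data known. Named were all 9 members, every called pathway gene (at most 12 per comparison), up to 2 uncalled genes of the highest level per group of pathway genes, and the 3 genes most like each member. Genes named beyond this rule were chosen after their values were seen.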

Additional observations from a re-analysis of the deposited data

How the results depend on the processing

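Of 372 fold changes of members recomputed under the alternatives, 322 kept their direction and side of the threshold, 29 kept the direction but lost the call, 3 gained one and 18 changed sign. Members called in WT Ly6Clo against WT Ly6Chi (3) ranged from 0 to 3 when 1 library was left out: 0 without WT Ly6Chi replicate 2 or 3 or WT Ly6Clo replicate 1 or 3, and 1 without WT Ly6Clo replicate 2. KO against WT Ly6Clo went from 0 to 1 with DESeq2, and KO Ly6Clo against WT Ly6Chi stayed at 2 or 3. Leaving out a library tests fewer samples, and the cause was otherwise not tested.

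The values that changed sign were all uncalled. For Plaur they were -0.41 (WT subsets) and 0.37 (KO against WT Ly6Clo) without WT Ly6Clo replicate 2, and, for KO Ly6Clo against WT Ly6Chi, 0.056 with limma-voom, 0.031 with the run term and 0.09, 0.24 and 0.19 without WT Ly6Chi replicate 2, WT Ly6Chi replicate 3 and KO Ly6Clo replicate 1. For Thbd in that contrast they were 0.19 with limma-voom, 0.10 with the replicate block, 0.27 with the run term and 0.21, 0.20 and 0.07 without the same 3 libraries. For F7 in KO against WT Ly6Clo they were 0.33 with limma-voom, 0.29 without WT Ly6Clo replicate 3, 0.05 without KO Ly6Clo replicate 1 and 0.052 without the libraries of number 1, where F5 gave -0.062. With 1 library left out, the range was -0.41 to 1.04 (WT subsets), -1.10 to 0.37 (KO against WT Ly6Clo) and -0.40 to 0.24 (KO Ly6Clo against WT Ly6Chi) for Plaur, -0.46 to 0.21 for Thbd in the last and -1.39 to 0.29 for F7 in KO against WT Ly6Clo. The cause was not tested.

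The replicate numbers were not taken as a pairing, since the labels state none and the correlations of deviations between same-numbered libraries, all above 0, were not all over 0.1 (0.00478 to 0.277). The single best partner of every library of numbers 1 and 2 had the same number, and that of every library of number 3 did not. WT Ly6Chi replicate 2 still correlated slightly more with WT Ly6Clo replicate 3 (0.0592) than with WT Ly6Clo replicate 2 (0.0552). With the replicate block, 3, 0 and 2 members were called in the 3 comparisons in the order above, and F5 in KO Ly6Clo against WT Ly6Chi had an edgeR adjusted p of 0.08.

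Over all genes, calls in WT Ly6Clo against WT Ly6Chi (643) became 1968 with DESeq2 and 239 to 847 without 1 library. Calls in KO against WT Ly6Clo (13) became 54 without a filter, 27 with the 1 CPM filter, 277 with DESeq2, 0 in the fit of 2 groups, 2 without the libraries of number 1 and 2 to 21 without 1 library. Calls in KO Ly6Clo against WT Ly6Chi (829) became 1950 with DESeq2 and 379 to 818 without 1 library. Depth limits F3 and Plau, with 0 and 51 counts over the 9 libraries.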
